A study of Mus musculus with 4 samples.

Results

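A set of 9 genes of insulin, insulin-like growth factor (IGF) and leptin signalling was read from a table of 21456 genes measured in nuclei of the mouse kidney cortex. The members were chosen by name: Igf1, the ligand; Insr, Igf1r and Lepr, the receptors for insulin, IGF-1 and leptin; Irs1 and Irs2, the docking proteins that carry the signal on; Foxo1 and Foxo3, transcription factors that the signal restrains; and Txnip. All 9 were present in the table. Txnip is not a component of the cascade but a glucose-responsive gene whose product binds thioredoxin and lowers glucose uptake.

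Single-nucleus RNA sequencing covered 4 genotypes on the C57BL/6J strain with 1 library each, and the sources used here give no ages, sexes or numbers of animals per library. WT carried neither mutation. Sco2KO/KI mice combined a knockout and a knock-in allele of Sco2, which carries copper to cytochrome c oxidase during its assembly in mitochondria, in the whole animal as far as the labels say. The db/db mice were homozygous for the db allele of Lepr, which removes the long, signalling form of the leptin receptor and leads to obesity, insulin resistance and diabetes. Sco2KO/KI;db/db, here the double mutant, carried both, so every comparison of the double mutant with db/db is made on a background without leptin signalling. The values sum over the isoforms of a gene, so they give no check of the db allele, and Sco2 itself was at 0.0340, 0.0216, 0.0110 and 0.0180 in the order WT, Sco2KO/KI, db/db, double mutant, used throughout for 4 values, in the proximal tubule-like class, too low to check its alleles.

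A level is the mean number of unique molecular identifiers (UMIs) per 10000 in the nuclei of 1 cluster in 1 library, introns included. In the order just given the libraries had 5157, 1181, 4578 and 5279 nuclei, spread over 21 clusters. Clusters 0, 1, 2, 3 and 7 carried proximal tubule markers and form the proximal tubule-like class, with 2447, 706, 2003 and 3015 nuclei. Cluster 7 held only 30 nuclei in the double mutant. The Sco2KO/KI library was the smallest, and several of its clusters fell under the 20 nuclei required for a comparison. With 1 library per genotype there are no replicates, so no difference was tested and each describes these 4 libraries only.

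Insulin binds Insr and IGF-1 binds Igf1r, both receptor tyrosine kinases that phosphorylate Irs1 and Irs2. These recruit PI3-kinase, AKT becomes active and phosphorylates the FOXO factors, which leave the nucleus. When the signal is weak, FOXO factors re-enter the nucleus and switch on genes of glucose production, stress defence and, in liver, Irs2 and Insr themselves. In the kidney, insulin restrains glucose production in the proximal tubule and promotes sodium uptake along the nephron. Txnip is switched on by glucose through the transcription factor pair MondoA or ChREBP with Mlx, which bind a carbohydrate response element in its promoter, and is also a FOXO target.

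The promoters of Txnip and Irs2 are shown because these genes had the largest ratios among the members in the comparison of the double mutant with db/db. Both are RefSeq sequences on GRCm38.p6, running 5′ to 3′ in the direction of the gene from 250 bases before its start to 50 bases after it. Capitals in the Txnip promoter (chr3:96557707-96558006, plus strand) mark a FOXO core motif, GTAAACA, and further on a match to the carbohydrate response element, searched as CACGNG and CNCGNG with 5 bases between them, where N is any base. Capitals in the Irs2 promoter (chr8:11008880-11009179, minus strand) mark an E-box, CACGTG. The RefSeq start of Irs2 lies upstream of that in the GENCODE gene model from which positions are given below.
Txnip promoter: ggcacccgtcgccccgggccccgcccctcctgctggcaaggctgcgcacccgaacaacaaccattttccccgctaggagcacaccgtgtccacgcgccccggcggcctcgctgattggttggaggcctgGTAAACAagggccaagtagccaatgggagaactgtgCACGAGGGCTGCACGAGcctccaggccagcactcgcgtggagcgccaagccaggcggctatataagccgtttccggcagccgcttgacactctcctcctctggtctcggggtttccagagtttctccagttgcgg
Irs2 promoter: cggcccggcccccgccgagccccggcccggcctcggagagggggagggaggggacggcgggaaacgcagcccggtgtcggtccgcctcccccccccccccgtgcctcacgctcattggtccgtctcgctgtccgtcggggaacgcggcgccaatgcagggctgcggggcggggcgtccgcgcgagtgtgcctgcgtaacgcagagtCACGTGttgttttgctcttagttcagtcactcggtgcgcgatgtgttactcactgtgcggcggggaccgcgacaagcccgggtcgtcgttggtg
The FOXO core begins at position -121 from the Txnip start and the carbohydrate response element at -85, and the motifs do not overlap. The E-box of Irs2 begins at -44. Both strands were searched in 32851 promoter windows of the same length. The FOXO core was present in 3.65% of them, the carbohydrate response element in 0.365% and the E-box in 7.15%. Among the 8 members with a promoter sequence, the FOXO core and the carbohydrate response element were found in Txnip alone, and the E-box in Irs1 and Irs2. A match describes letters in this window and is not evidence of binding.

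The members differed in where along the kidney they were found. Igf1r was highest in the proximal tubule-like clusters, Irs1 in type B intercalated cells, Lepr and Foxo1 in endothelium, and Txnip in the distal nephron and endothelium. Clusters are ordered below by the mean over the libraries with at least 20 nuclei, and the spread is the range over those libraries.

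**Figure D1:**
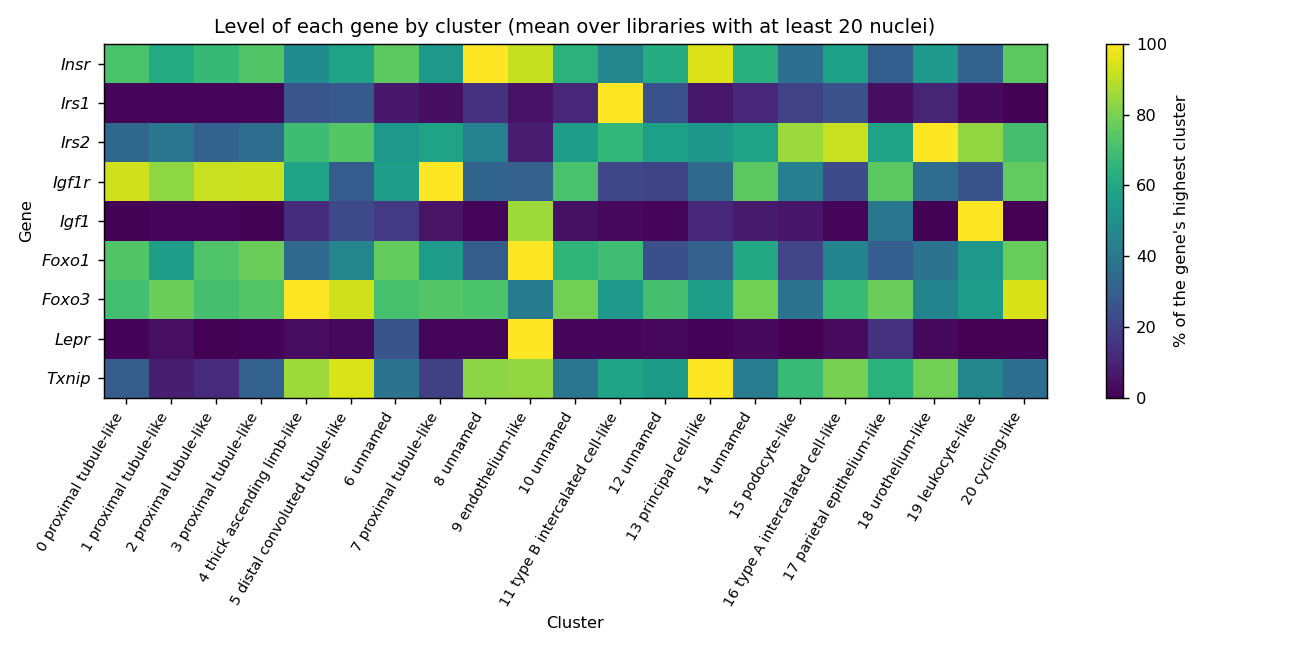
Heat map of the 9 genes (rows) over 21 clusters (columns), coloured as a percentage of the gene's own highest cluster, from the mean over libraries with at least 20 nuclei. Irs1 stands out in cluster 11, where its mean was 8.32 against 2.31 in the next cluster, and Lepr in cluster 9, with 0.654 against 0.171.

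Igf1 (chromosome 10, 87858265 to 87937042, plus strand on mm10), the hormone that liver and many tissues make in response to growth hormone, was low in nearly all kidney clusters. In the proximal tubule-like class it was at 0.0227 (WT), 0.0184 (Sco2KO/KI), 0.0338 (db/db) and 0.0726 (double mutant). The double mutant's value came mainly from the 30 nuclei of cluster 7, at 0.293, and its other clusters in the class were below WT. Igf1 had its highest mean, 2.00, in the leukocyte-like cluster 19. Only db/db and the double mutant had 20 or more nuclei there, at 3.79 and 0.213. The endothelium-like cluster 9 followed with a mean of 1.71, and the ranges over libraries overlapped.

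Insr (chromosome 8, 3122061 to 3279617, minus strand) was found in all 21 clusters. Its highest means were 4.95 in the unnamed cluster 8, which carried connecting tubule and principal cell markers, 4.68 in the principal cell-like cluster 13 and 4.51 in the endothelium-like cluster 9. Their ranges over libraries overlapped, so these neighbours are not separated.

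Igf1r (chromosome 7, 67952827 to 68233668, plus strand) had its highest mean, 24.2, in the proximal tubule-like cluster 7, followed by 22.4 in clusters 0 and 3. Its range in cluster 7 was 17.5 to 33.4 over the 4 libraries and overlapped those of clusters 0 and 3. Type B intercalated cells in WT had 8.60 and distal convoluted tubule cells 7.72.

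Lepr (chromosome 4, 101717404 to 101815352, plus strand) was near 0 along the nephron. The proximal tubule-like class had 0.00973, 0.0180, 0.00698 and 0.00780 in the usual order of genotypes. In the endothelium-like cluster its mean was 0.654, and the unnamed cluster 6 followed with 0.171. The ranges of these neighbours, 0.241 to 1.32 and 0.0603 to 0.272, overlapped at their ends. No other member lies on chromosome 4.

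Irs1 (chromosome 1, 82233101 to 82291416, minus strand) was far higher in 1 cluster than in the rest. The type B intercalated cell-like cluster 11 had 8.11 in WT, 10.1 in db/db, 6.72 in the double mutant and 13.4 in the 15 nuclei of Sco2KO/KI. The next clusters were distal convoluted tubule-like, with 1.93 to 2.73, and thick ascending limb-like, with 1.61 to 2.81. The range of cluster 11 did not overlap that of any other cluster with at least 20 nuclei. The same nuclei carried Insrr, the insulin receptor-related receptor, an alkali sensor used as a type B marker, at 7.25, 7.61, 6.86 and 8.52 in the usual order.

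Irs2 (chromosome 8, 10984681 to 11008458, minus strand) was low everywhere. Its highest mean was 0.897 in the urothelium-like cluster 18, with 2 libraries at 0.468 and 1.33, then 0.822 in type A intercalated cells and 0.761 in podocytes. These ranges overlapped. The endothelium-like cluster had the lowest mean among clusters with at least 20 nuclei, its libraries running from 0 in the double mutant to 0.144 in db/db.

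Foxo1 (chromosome 3, 52268336 to 52353221, plus strand) was highest in the endothelium-like cluster, where the level was at 3.14 (WT), 4.22 (Sco2KO/KI), 3.86 (db/db) and 5.07 (double mutant). The proximal tubule-like cluster 3 followed with a mean of 3.16 and an overlapping range. Podocytes had a low level, 0.955 in WT.

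Foxo3 (chromosome 10, 42181841 to 42276755, minus strand) was highest in the thick ascending limb-like cluster 4, with a mean of 4.55 and a range of 3.88 to 5.43. The distal convoluted tubule-like cluster 5, with 2.83 to 5.65, overlapped it. The endothelium-like cluster had 1.42 to 2.18, below every library of cluster 4.

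Txnip (chromosome 3, 96557957 to 96561883, plus strand) had its highest means in the principal cell-like cluster 13, 7.10, the distal convoluted tubule-like cluster 5, 6.70, and the thick ascending limb-like cluster 4, 6.07. Their ranges overlapped. In WT the 5 proximal tubule-like clusters lay between 0.535 and 0.974, below the 7.59 of principal cells and the 4.73 of endothelium. Txnip is overlapped on the opposite strand by Gm15441, whose own level in the proximal tubule-like class was 0.107, 0.0343, 0.106 and 0.169 in the usual order of genotypes. Insr, Irs1, Irs2, Igf1 and Foxo1 also overlap annotated genes on the other strand, and Foxo1 a further one on its own strand. The sources used here do not say whether reads were counted by strand, so a share of such reads from the partner cannot be told apart.

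In the means of the proximal tubule-like class, Sco2 deficiency on the lean background went with little difference in these genes, but single clusters differed more. A gene is called past the fold here when its class log2 ratio, the mean over the 5 clusters of log2 of (value + 0.1), reaches 1.5-fold and its class level is at least 0.5 in 1 of the libraries. Of the 9 members, 5 reached that level (Insr, Igf1r, Foxo1, Foxo3 and Txnip) and 0 were past the fold, against a background of 9.72% of 3939 genes. Igf1r had the largest ratio, at 20.5 against 27.5 in WT, or -0.41 as a log2 ratio. Foxo3 was at 2.84 and 2.24 and lower in all 5 clusters, with a log2 ratio of -0.34. Insr, at 2.78 and 3.12, was higher in 4 of 5 clusters. Txnip had a class log2 ratio of -0.31, but its clusters ran from -1.30 in cluster 7 to 0.53 in cluster 3. In cluster 7 alone, 3 of 5 members were past the fold downwards (Igf1r, Foxo3 and Txnip), against 10.9% of 4028 genes. In cluster 1 Txnip was, against 7.67% of 3965 genes, and in clusters 0, 2 and 3 no member was past the fold. The median over the 5 members was -0.31, beside -0.06 over all genes above the level.

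The comparison of db/db with WT, which asks what loss of leptin signalling and the diabetes that follows go with, also put 0 of 5 members past the fold, against 15.9% of 4045 genes. Igf1r was again lower, at 20.6 against 27.5, in all 5 clusters, with a log2 ratio of -0.41. Foxo1 was higher in all 5 clusters, at 2.97 against 2.20, a log2 ratio of 0.40. Txnip, at 0.758 against 0.715, and Foxo3, at 2.84 in both, hardly differed. The median over members was 0.08, beside 0.07 over all genes. Irs1 stayed below the level of 0.5, but its values were higher in db/db in all 5 clusters: 0.342 against 0.074 in cluster 0, 0.256 against 0.127 in cluster 1, 0.197 against 0.089 in cluster 2, 0.283 against 0.077 in cluster 3 and 0.458 against 0.109 in cluster 7. Its class log2 ratio was 1.04.

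The double mutant differed from the other 3 libraries in Txnip, Foxo3 and Irs2. Against db/db, 3 of the 6 members at the level were past the fold and all 3 were higher, against a background of 9.17% of 4057 genes past it in that direction. Irs2 reached the level of 0.5 only in the double mutant, so its direction in this count is fixed by the level and supports nothing. Of the 5 members at the level in both libraries, 2 were past the fold, Foxo3 and Txnip, and their median was 0.35, beside -0.07 over all genes. No member was past the fold in the lower direction, where the background was 6.68%.

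Txnip was at 0.715 (WT), 0.607 (Sco2KO/KI), 0.758 (db/db) and 3.63 (double mutant). By cluster the double mutant had 5.49 in cluster 0, 1.00 in cluster 1, 1.86 in cluster 2, 6.50 in cluster 3 and 3.30 in cluster 7. In the other 3 libraries the 15 values ranged from 0.321 to 1.06, so cluster 1 of the double mutant lay within that range and the other four clusters above it. Against db/db the class log2 ratio was 1.87, from 0.95 in cluster 1 to 2.71 in cluster 3, and it ranked 10 of 4057 genes from the top. Against Sco2KO/KI it was 2.25, and against WT 1.95.

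Foxo3 was at 2.84, 2.24, 2.84 and 5.39 in the same order of libraries. In the double mutant its 5 clusters lay between 4.94 and 6.01, above the 15 values of the other libraries, which ran from 1.72 to 3.32. The log2 ratio was 0.90 against db/db, 1.25 against Sco2KO/KI and 0.91 against WT. Its range over clusters against db/db was narrow, from 0.72 to 1.06.

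Irs2 was at 0.253, 0.296, 0.218 and 0.647. The 5 clusters of the double mutant ranged from 0.433 to 1.08 and the other 15 values from 0.166 to 0.410. The log2 ratio was 1.20 against db/db, 0.88 against Sco2KO/KI and 1.05 against WT. These levels rest on few molecules, about 62 UMIs in cluster 3 and 13 UMIs in the 30 nuclei of cluster 7 of the double mutant, and about 23 and 29 UMIs in the same clusters of db/db.

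**Figure D2:**
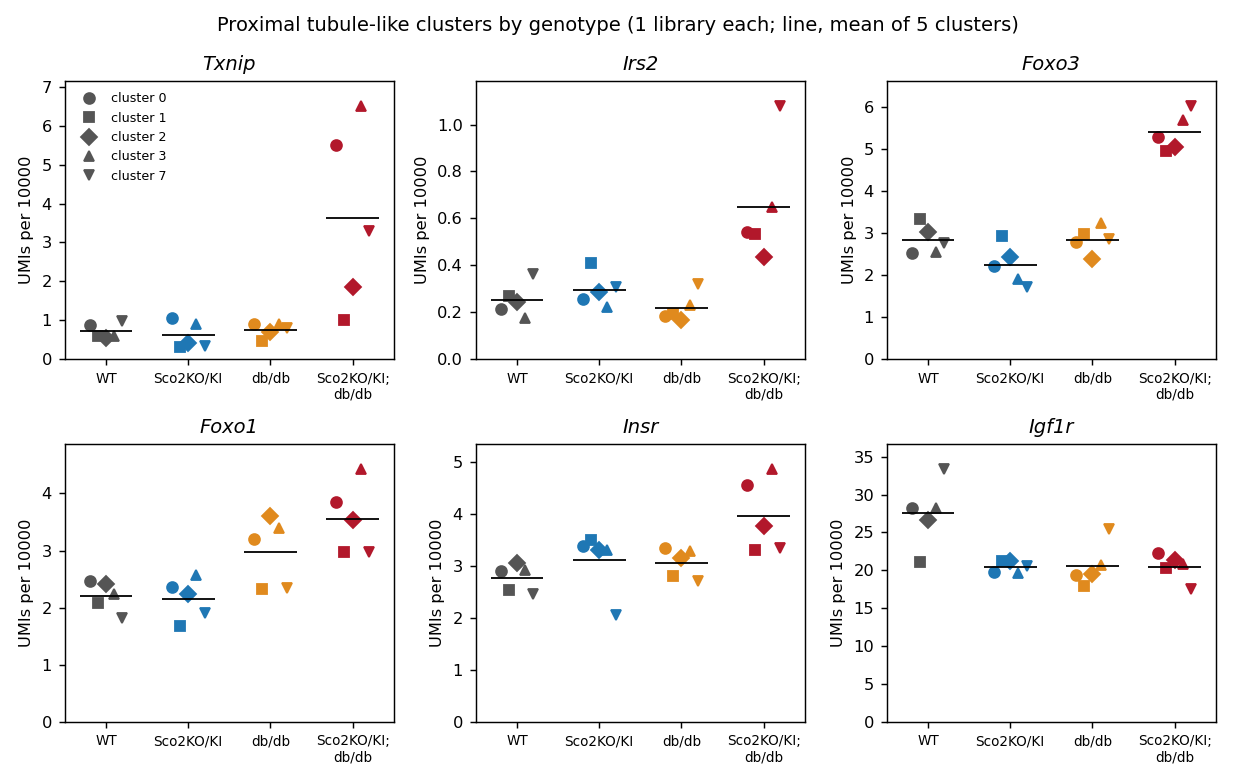
Levels in UMIs per 10000 of the 6 members that reached 0.5 in the proximal tubule-like class, by genotype. Each point is 1 of 5 clusters in 1 library and the line is their mean. The Foxo3 and Irs2 points of the double mutant lie above all others, its Txnip points spread from 1.00 to 6.50, and Igf1r has its highest mean in WT.

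Foxo1 followed a different course. It was at 2.20 (WT), 2.15 (Sco2KO/KI), 2.97 (db/db) and 3.55 (double mutant), so both libraries with the db allele were above both without it. It was past the fold in the double mutant against Sco2KO/KI, with a log2 ratio of 0.70, and against WT, with 0.66, but not against db/db, with 0.25. Without cluster 3 its ratio against WT came to just under the fold. Among the 5 members at the level in both libraries, Foxo1, Foxo3 and Txnip were thus 3 past the fold against Sco2KO/KI, where the background in the higher direction was 9.07%, and 3 against WT, where it was 9.55%. Irs2 was past it too, again with only the double mutant at the level. These comparisons share the double mutant's library, so their counts do not add to each other. The medians over the 5 were 0.70 and 0.66, beside 0.06 and -0.0039 over all genes.

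The receptors differed less. Insr was at 2.78, 3.12, 3.06 and 3.97, with a log2 ratio of 0.35 in the double mutant against db/db, positive in all 5 clusters. Igf1r was at 27.5, 20.5, 20.6 and 20.5, so WT was above the other 3 libraries, which were level with each other. Against db/db the Igf1r ratio of the double mutant was -0.01.

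**Figure D3:**
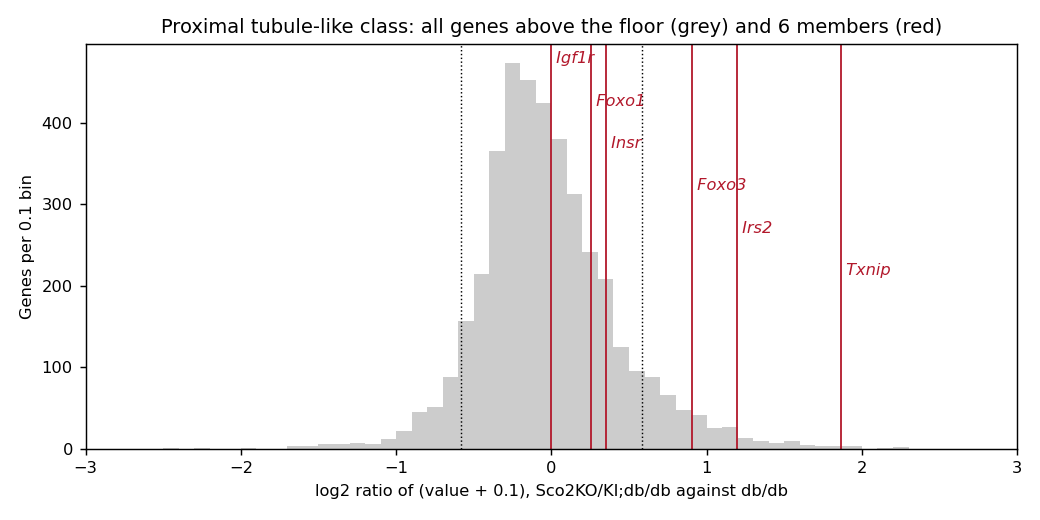
Histogram of the log2 ratio of (value + 0.1) of the double mutant against db/db in the proximal tubule-like class, for 4057 genes in grey, with 6 members as red lines; dotted lines mark 1.5-fold. Txnip, Irs2 and Foxo3 lie beyond the upper dotted line at 1.87, 1.20 and 0.90, and Igf1r lies at -0.01.

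Markers of several other nephron segments and cell types were checked in the same proximal tubule-like columns, since Txnip, Irs2 and Foxo3 have their highest levels elsewhere. The 8 thick ascending limb markers summed to 11.6, 10.1, 10.5 and 6.60 in the usual order of genotypes. The 7 distal convoluted tubule markers summed to 13.2, 12.5, 13.5 and 11.6, and the 9 principal cell markers to 1.38, 0.822, 1.21 and 1.13. The double mutant was below db/db in these sums. The 6 connecting tubule markers summed to 6.39, 3.49, 5.66 and 10.3, and were higher in the double mutant. So were the 6 type A intercalated cell markers, at 0.256, 0.209, 0.234 and 0.365, the 6 of type B cells, at 0.441, 0.254, 0.308 and 0.637, and the 7 of podocytes, at 13.5, 14.2, 11.4 and 14.7. None of the markers in these lists was at 0 in any library, and the part of the lists that were higher was not tested.

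The difference between the Sco2 effects on the db/db and the lean background is the ratio of the double mutant to db/db minus that of Sco2KO/KI to WT. For Txnip these ratios were 1.87 and -0.31 on the log2 scale, a difference of 2.17. For Foxo3 they were 0.90 and -0.34, a difference of 1.25. For Insr, Igf1r and Foxo1 the differences were 0.21, 0.40 and 0.30. The differences were not tested, for lack of replicates.

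Across the kidney, Txnip in the double mutant exceeded db/db in 18 of 18 clusters compared, the 5 proximal tubule-like ones included, and 15 were past 1.5-fold. Of 2005 genes at the level in all 18 clusters, 2.49% were higher in all of them, and the share of genes past 1.5-fold upwards in a cluster ran from 9.14% to 32.3%. The smallest difference was in the principal cell-like cluster, at 7.87 against 7.73.

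In some clusters outside the proximal tubule, db/db itself differed from WT. Txnip was lower in db/db than in WT past 1.5-fold in clusters 5, 8, 10, 11 and 12. Genes past the fold downwards made up 14.2%, 21%, 9.09%, 14.9% and 20.9% in these clusters. In the type B intercalated cell-like cluster it was at 5.20 in WT, 1.60 in db/db, 5.65 in the double mutant and 5.78 in the 15 nuclei of Sco2KO/KI. In cluster 8 it was at 9.09, 4.74, 2.77 and 6.91 in the usual order of genotypes. In the distal convoluted tubule-like cluster it was at 7.58, 6.06, 3.64 and 9.53. The double mutant thus lay above the other 3 libraries in the distal convoluted tubule-like cluster, near WT in cluster 11 and below WT in cluster 8. In the principal cell-like cluster db/db was close to WT, at 7.73 against 7.59, and in the type A intercalated cell-like cluster 16 it was lower but not past the fold, at 3.83 against 5.23. In the podocyte-like cluster db/db was past the fold upwards, at 4.72 against 2.81, as were 11.8% of genes there. In the thick ascending limb-like cluster, at 5.43, 4.64, 5.66 and 8.55, and in endothelium, at 4.73, 5.77, 4.93 and 8.40, db/db was close to WT and the double mutant was highest. Against WT the double mutant was higher in 16 of 17 clusters, the exception being cluster 8.

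**Figure D4:**
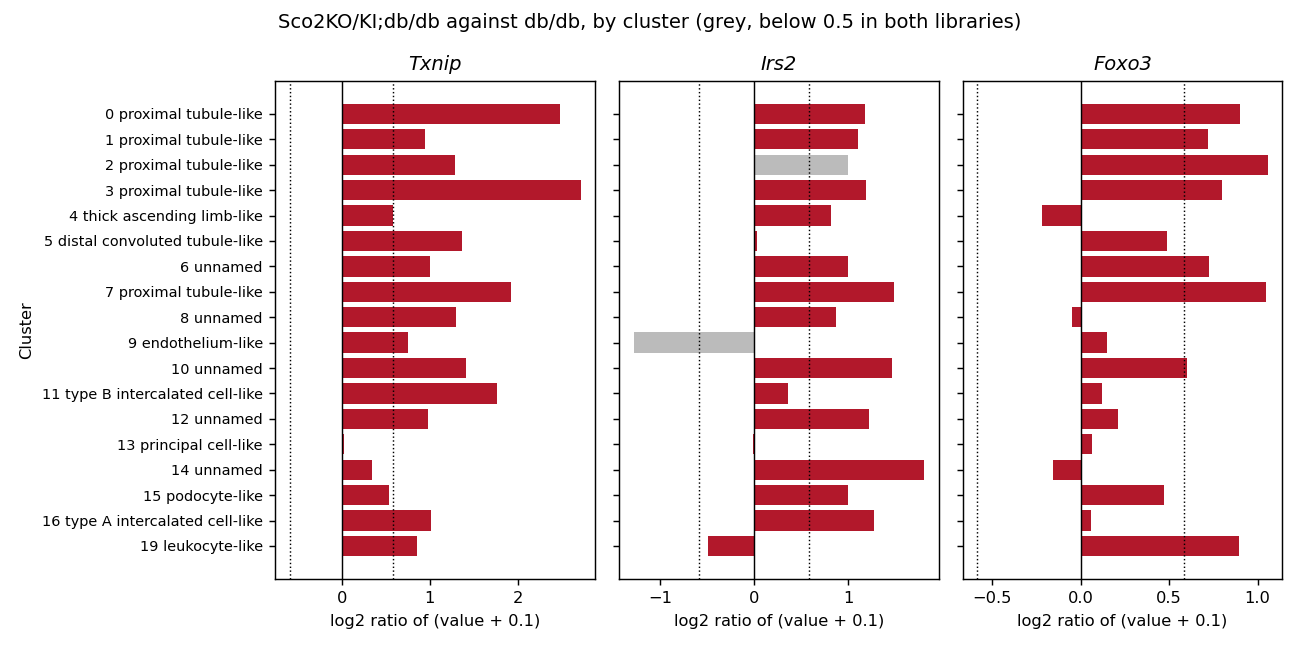
Bars give the log2 ratio of (value + 0.1) of the double mutant against db/db for Txnip, Irs2 and Foxo3 in each of 18 clusters with at least 20 nuclei in both libraries; dotted lines mark 1.5-fold and grey bars lie below a level of 0.5 in both libraries. Txnip is positive in 18 clusters, Irs2 in 14 of the 16 where 1 or both libraries reached the level, and Foxo3 in 15 of 18.

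Irs2 was above db/db in the double mutant in 15 of all 18 clusters compared, many of them at low levels. It reached 0.5 in 1 or both of the libraries in 16, with 14 higher and 12 past the fold, but db/db itself reached it in only 5, so the level favours the higher direction in the other clusters. In those 5 the double mutant was higher in 3. In the thick ascending limb-like cluster it was at 0.545 (WT), 0.550 (Sco2KO/KI), 0.469 (db/db) and 0.905 (double mutant). In the distal convoluted tubule-like cluster db/db was already high, at 0.893 against 0.296 in WT, and the double mutant had 0.917.

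For Foxo3 the double mutant was above db/db in 15 of 18 clusters. In 8 it was past the fold: the 5 proximal tubule-like clusters, the unnamed clusters 6 and 10, and the leukocyte-like cluster. The leukocyte-like cluster had 20 nuclei in db/db, and 32.3% of its genes were past the fold upwards. In the other clusters named that share ran from 9.14% to 22.9%. In the thick ascending limb-like cluster Foxo3 was at 3.88, 4.25, 5.43 and 4.65 in the usual order of genotypes, so db/db was highest there. Against WT the double mutant was higher in 17 of 17 clusters, as were 0.983% of 2239 genes.

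Foxo1 was not past the fold upwards in any of the 18 clusters of the double mutant against db/db, and was past it downwards in clusters 5, 11 and 19, where 12.4%, 16.7% and 39.2% of genes were. In the distal convoluted tubule-like cluster it was at 2.13 (WT), 1.86 (Sco2KO/KI), 2.20 (db/db) and 1.23 (double mutant). In the proximal tubule-like clusters its direction was the reverse, higher in 4 of 5 but not past the fold.

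Igf1r was lower than in WT in every cluster compared in both libraries with the db allele. This was 19 of 19 clusters in db/db, where 3.95% of 2227 genes were lower in all, and 17 of 17 in the double mutant, where 3.22% of 2239 genes were. Most of these differences were small, the median log2 ratios being -0.41 for db/db and -0.43 for the double mutant. Both counts rest on the 1 WT library. In Sco2KO/KI the level was below WT in 12 of 14 clusters.

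The type B intercalated cell-like cluster held the largest difference in Igf1r among clusters with at least 20 nuclei. It was at 8.60 in the 158 nuclei of WT, 4.90 in the 164 of db/db and 2.02 in the 215 of the double mutant, or about 550, 197 and 116 UMIs. In the 15 nuclei of Sco2KO/KI it was at 1.70. Genes past 1.5-fold downwards in this cluster made up 14.9% for db/db against WT, 16.7% for the double mutant against db/db and 19.5% for the double mutant against WT. Proximal tubule markers, whose cells have high Igf1r, also differed in this cluster. All 16 were found in each library, and they summed to 82.7, 52.1, 50.8 and 30.6 in the usual order. Kap, a gene of that list, was at 20.4, 26.4, 2.65 and 2.22, and so made up much of the drop from WT to db/db. The 6 connecting tubule markers summed to 81.2, 57.8, 29.1 and 36.0. Their part in the Igf1r values was not tested. Irs1 in the same nuclei was at 8.11, 10.1 and 6.72 in WT, db/db and the double mutant.

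In the endothelium-like cluster, with 124, 65, 279 and 257 nuclei in the 4 libraries, Igf1 differed most among the members. It was at 3.96 (WT), 1.78 (Sco2KO/KI), 0.945 (db/db) and 0.133 (double mutant), or about 49, 21, 27 and 3 UMIs. WT was highest and the double mutant lowest. Differences past 1.5-fold were common in this small cluster, where 24.7% of 5078 genes were past 1.5-fold downwards in db/db against WT and 26.9% of 5094 in the double mutant against WT. The share was 25% for Sco2KO/KI against WT and 17.5% for the double mutant against db/db. The Igf1 ratio was larger than that limit, with a log2 ratio of -1.96 for db/db against WT, and 1.34% of genes had a ratio as low. For Sco2KO/KI against WT it was -1.12, and 10.9% of genes were as low. Leukocyte markers were also highest in WT here: the 8 measured summed to 3.07, 1.24, 0.865 and 1.03 in the usual order, with 1, 4, 5 and 2 of them at 0. Their part in the Igf1 values was not tested.

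Lepr in the same nuclei was at 0.570, 1.32, 0.490 and 0.241, about 7, 16, 14 and 6 UMIs. Sco2KO/KI was highest, past 1.5-fold against WT where 19.5% of 5249 genes were past it upwards. With 16 UMIs or fewer in each library, Lepr is too thinly counted here for an order among the genotypes.

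Levels of other endothelial genes, looked up after the values had been seen, also differed between libraries in this cluster, where a different mix of cells and different levels per cell cannot be told apart. Sox17, a factor of arterial endothelium, was at 1.5 (WT), 0.312 (Sco2KO/KI), 0.857 (db/db) and 0.384 (double mutant). Plvap, found in fenestrated capillaries, was at 6.72, 6.67, 4.30 and 15.2. Ehd3, a gene of glomerular endothelium, was at 1.15, 1.73, 1.13 and 2.36. Flt1, a receptor for VEGF, was at 16.9, 38.0, 27.9 and 40.6, and Pecam1, the pan-endothelial CD31, at 9.52, 8.75, 13.7 and 8.58. Igfbp3, which binds and carries IGF-1, was at 6.26, 19.5, 5.40 and 14.9, so it was higher in both Sco2-deficient libraries. The 16 proximal tubule markers summed to 101, 115, 39.2 and 43.0 in this cluster, and none was at 0. Kap, a gene of that list, was at 48.0, 59.15, 5.825 and 5.78, and so made up much of the drop from WT to db/db. The proximal tubule-like class itself had Igf1 at no more than 0.0726, and the part of the arterial and capillary genes in the Igf1 values was not tested. The 9 endothelial markers were all present in each library and summed to 131, 172, 168 and 187.

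**Figure D5:**
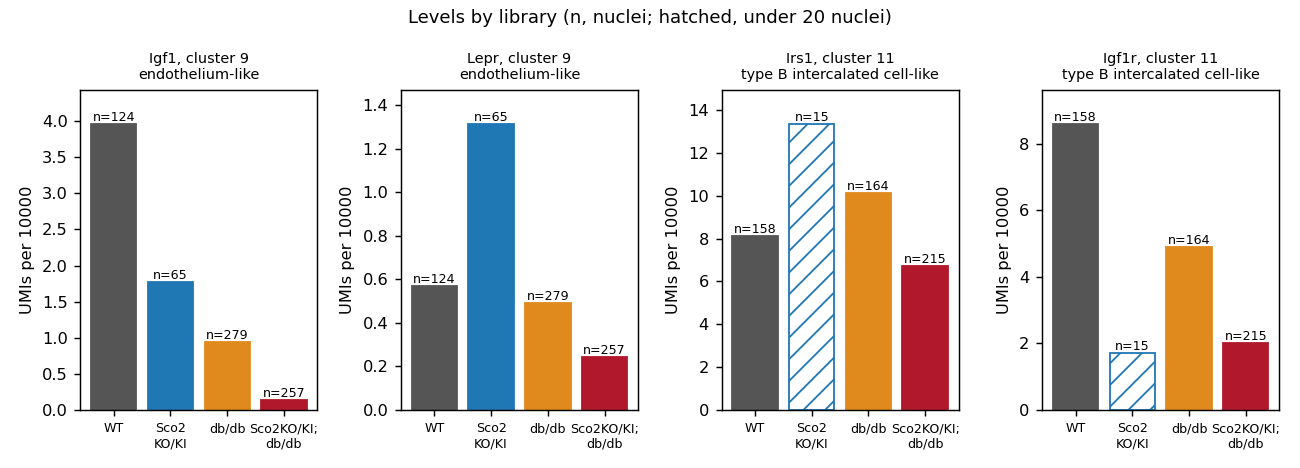
Levels in UMIs per 10000 of Igf1 and Lepr in the endothelium-like cluster 9 and of Irs1 and Igf1r in the type B intercalated cell-like cluster 11, with 1 bar per library and the number of nuclei above it; hatched bars have under 20 nuclei. Igf1 is highest in WT at 3.96 and Igf1r in cluster 11 is highest in WT at 8.60.

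The rest of the pathway was followed in the proximal tubule-like class with 8 lists of 111 genes in all, of which 110 were in the table. In Sco2KO/KI against WT, 48 reached the level, with G6pc past the fold upwards and Bcl6 and Trim63, a muscle ubiquitin ligase, downwards, or 2.08% and 4.17%, beside 4.11% and 5.61% over all genes. In db/db against WT 4 of 52 were past it upwards and 2 downwards, or 7.69% and 3.85%, beside 7.34% and 8.6%. For the double mutant against db/db, 5 of 52 were past the fold upwards and 7 downwards, or 9.62% and 13.5%, beside 9.17% and 6.68% over all genes. Some of these genes reached the level only in the library where they were higher, so their direction is fixed by the level. In the first comparison this was Trim63, with only WT at the level. It was Sesn3 and Igf2bp2 in the second and Tnfsf10 and Sesn3 in the third, with only db/db at the level.

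Receptor substrates, adaptors and kinases differed little. Of 5 adaptors and substrates at the level, 0 were past the fold in the double mutant against db/db. Of 6 PI3K and AKT genes, Pik3cb, a catalytic PI3-kinase subunit, was lower, at 0.601 against 0.997, a log2 ratio of -0.63. The medians over the adaptors and the kinases were -0.15 and -0.10 for the double mutant against db/db.

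Among 6 inhibitors at the level, Ptprf, a receptor phosphatase that acts on Insr, was past the fold upwards in the double mutant against db/db. It was at 0.784, 0.944, 0.912 and 1.35 in the usual order, a log2 ratio of 0.60. Of 10 AKT and mTOR effectors, Deptor, an inhibitor of mTOR, was past the fold, at 1.14, 1.78, 0.964 and 2.08, with a ratio of 1.04 against db/db. The medians over these lists were -0.19 and -0.09.

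The FOXO list did not differ in 1 direction. Of 10 FOXO factors and textbook targets other than the members at the level, 2 were past the fold upwards and 3 downwards in the double mutant against db/db. G6pc, the last enzyme of glucose production, was at 1.84 (WT), 3.18 (Sco2KO/KI), 1.81 (db/db) and 8.90 (double mutant), a log2 ratio of 2.29 against db/db. Cat, the peroxide-degrading catalase, was at 2.23, 2.31, 2.20 and 3.74, a ratio of 0.71. In contrast Tnfsf10, the death ligand TRAIL, was at 0.356, 0.552, 0.510 and 0.0659, a ratio of -1.61. Sesn3, a stress-induced inhibitor of mTORC1, was at 0.472, 0.336, 0.850 and 0.463, a ratio of -0.72, and Atp6v1h, a proton pump subunit, had -0.64. In this comparison Tnfsf10 and Sesn3 reached the level of 0.5 only in db/db. Their direction in the count is thus fixed by the level and supports nothing. G6pc and Cat, which were higher, and Atp6v1h, which was lower, were at the level in both libraries. Bcl6, a transcriptional repressor, was highest in WT at 5.36, and the other libraries had 2.53, 0.902 and 1.19. The list's median ratio was 0.26, beside -0.07 over all genes.

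Of the IGF list, 6 genes reached the level, and 1 was past the fold upwards and 2 downwards in the double mutant against db/db. Igfbp4, an IGF-binding protein that blocks IGF action, was at 5.40 (WT), 4.72 (Sco2KO/KI), 2.11 (db/db) and 6.67 (double mutant). Its db/db library was thus the low one, -1.29 against WT on the log2 scale, and the double mutant was 1.70 above it. Igf2bp2, an RNA-binding protein, was at 0.367, 0.370, 1.08 and 0.614, so db/db was the high one, and the ratio was -0.83. Ghr, the growth hormone receptor, was at 89.2, 107, 87.0 and 60.2, a ratio of -0.66. The median over the list was -0.28.

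The leptin list had 3 genes at the level and 0 past the fold in the double mutant against db/db. Among the partners of Txnip and other glucose-responsive genes, 6 reached the level and 0 were past the fold in that comparison. Mlxipl, the gene of ChREBP, was at 4.40, 4.01, 5.37 and 3.72, a ratio of -0.51. Arrdc4, the arrestin gene closest to Txnip among MondoA and ChREBP targets, was at 0.0625, 0.0331, 0.0366 and 0.0560, below the level in all 4 libraries. Slc2a2, the basolateral glucose transporter GLUT2, was past the fold in db/db against WT, at 4.41 against 2.72, a log2 ratio of 0.89, and was at 3.25 in the double mutant.

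Genes most like a member were ranked by the Pearson correlation of log2 of (value + 0.1) over 72 columns of cluster and genotype with at least 20 nuclei, among 8554 genes. Columns of a library share its depth and preparation, so these values are descriptions. For Lepr they were Erg, an endothelial transcription factor (0.897), 4930578C19Rik (0.889) and Flt4, a receptor for VEGF-C (0.884). For Igf1r they were the glutamate transporter gene Slc1a1 (0.853), the integrin gene Itgb8 (0.850) and the kinase gene Lrrk2 (0.841). For Irs1 they were Sh3pxd2a (0.821), Acacb, the mitochondrial acetyl-CoA carboxylase (0.816), and Casz1 (0.801). For Txnip they were Cuedc1 (0.784), Nectin2 (0.774) and Hk1, hexokinase 1 (0.772). The closest genes of Foxo1, Insr and Igf1 were Dennd3 (0.783), Pcbp3 (0.757) and Pip4k2a (0.737). Foxo3 and Irs2 had no gene above 0.649 and 0.598. Between members, Igf1r ran against Irs1 (-0.667) and Txnip (-0.615), and Irs1 ran with Txnip (0.592).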

How the data were processed

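Droplet-based single-nucleus RNA sequencing of kidney cortex gave 1 library for each of 4 genotypes. Cell Ranger and Seurat were used on mm10, per the submitters' processing notes; the sources used here give no versions, filters on nuclei or treatment of doublets. The deposited values are a signal, the mean over the nuclei of a cluster in a library after scaling each nucleus to 10000 UMIs, as seen from the totals of 10000 in all 83 columns. Of 21481 entries, 25 with calendar dates for names were left out, at most 0.307% of a column. Library codes in the headers assigned the columns to genotypes, with 0 left over.

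The members, the 19 marker lists and the 8 pathway lists were chosen with earlier results of these data known. Numbers of nuclei were recovered from each column's smallest values, which was decided after the data were seen: 10000 over the value of a gene seen as 1 UMI in 1 nucleus is a multiple of the number of nuclei, and the largest number dividing at least 80% of whole quotients (relative tolerance 1e-10) was taken; the lowest share so divided was 88.5%. Approximate UMIs use totals per nucleus recovered likewise for 57 columns, with medians from 736 to 10223. In some columns more totals than nuclei were recovered, such as 39 for the 30 nuclei of cluster 7 in the double mutant. Some totals are therefore not those of nuclei, and the approximate UMIs are rough. Both steps were tested on simulated data, with results that are not reported here. Counting intervals were not derived from the approximate UMIs.

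Clusters were named, also after the data were seen, by the marker list with the highest median log2 over the median of the other clusters and at least 50% of its markers at 1 or more; a cluster stayed unnamed (6, 8, 10, 12 and 14) where another list with at least 75% lay within 1.25. These names need not be the study's.

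Log2 ratios used a pseudocount of 0.1, which understates the change of low genes, and a class value is the unweighted mean over its 5 clusters. All 9 members are named, and pathway genes past 1.5-fold, up to 4 per list, except some that are not reported here; Mlxipl, Arrdc4 and the endothelial genes were added after their values were seen. Positions are from GENCODE vM21, promoters from RefSeq. Python 3.11.15, numpy 2.4.6 and pandas 2.3.3 were used.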

Additional observations from a re-analysis of the deposited data

Results flagged for a closer look

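In the proximal tubule-like class, Txnip and Foxo3 had the largest differences between the log2 ratios for Sco2 deficiency on the 2 backgrounds among the 5 members at the level throughout, with opposite signs. For Txnip the ratio was -0.31 in Sco2KO/KI against WT and 1.87 in the double mutant against db/db, a difference of 2.17, and for Foxo3 -0.34 and 0.90, a difference of 1.25. For Foxo1 the ratios were -0.04 and 0.25, a difference of 0.30, and the lean one was positive in 2 of 5 clusters. These differences were not tested, since each background has 1 library per genotype. In the lean comparison Foxo3 was lower in all 5 clusters and Txnip in 3 of 5, and in the db/db comparison both were higher in all 5.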

How the results depend on the processing

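No paired analysis was possible because each genotype has 1 library. Of 65 counts of members past the fold under the alternatives (pseudocount, floor, fold, weighting by nuclei, each cluster left out, rescaling without mitochondrially encoded genes, centring), 62 stayed within 1.5 times the value reported. The 3 that moved follow from the rule itself: with no floor, Irs1 gave 1 member for db/db against WT, and at 2-fold the double mutant had 2 members against Sco2KO/KI (Foxo3 and Txnip) and 2 against WT (Irs2 and Txnip). Within the other counts, calls also ended. At a pseudocount of 0.5, Irs2 against Sco2KO/KI fell to 0.51 and Foxo1 against WT to 0.58, both under the fold, and without cluster 3 Foxo1 against WT was just under it, at 0.58. A floor of 1.0 left Irs2 out of all 3 comparisons of the double mutant, with counts of 2 against db/db, 3 against Sco2KO/KI and 3 against WT. At 2-fold, Foxo3 was no longer among the 2 members called against db/db. With no floor, Irs1 raised the counts against Sco2KO/KI and WT to 5. The shares of all genes past the fold under these settings are not given here, so these counts have no background beside them. Of 450 log2 ratios, 440 stayed within 1 SD over clusters, 10 moved further and 0 of the called ones changed sign. Irs2, the lowest of these, moved most with the pseudocount, from 0.66 at 0.5 to 1.49 at 0.01 in the double mutant against db/db. Txnip in that comparison ranged from 1.51 to 2.10 and Foxo3 from 0.82 to 0.98. With at least 50 nuclei, the highest cluster became 16 for Irs2 and 9 for Igf1.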
